A study of Mus musculus with 8 samples.

Results

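The proteasome is the protease complex that degrades ubiquitin-tagged proteins in the cytosol and nucleus. Its genes were taken here as all those on the array whose symbol begins with Psm, followed by a letter from a to g and a number. The rule found 44 of 18138 gene symbols and 65 of 25697 probes. Of these genes 40 were detected and tested, and Psma1, Psma3, Psma6 and Psmc6 were not detected on any array, so that nothing is known here of their response.

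The data came from primary mouse aortic smooth muscle cells, grown out of explants of several aortas, that were transfected with RNAiMAX and a small RNA at 5 nM. One treatment was the moR-21 mimetic, a synthetic RNA with the sequence of the microRNA-offset RNA that lies beside miR-21 in its precursor, and the other was a scrambled control, a mimetic of random sequence. Total RNA was collected at 48 h from 3 samples per treatment, and a pair of arrays, A and B, was run for control sample 1 and for moR-21 sample 3. The comparison asked which transcripts differed in cells given the mimetic. Nothing in the labels says that the samples came from separate cultures or animals, so the p-values measure the spread between these samples, which may be technical. The samples are bulk RNA, in which fewer cells of a type and less RNA per cell cannot be told apart.

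The agent itself is shown by the precursor it comes from. RefSeq places the Mir21a hairpin at chr11:86584067-86584158 on the minus strand of GRCm38.p6, and its first 30 bases lie at chr11:86584129-86584158. In the hairpin line the capitals mark GUACC. The study examined seed windows all along moR-21, and GUACC is the stretch that only the first of these windows have in common. In the miR-21a-5p line the capitals mark the seed, bases 2 to 8. These marks are unlike, since GUACC is a shared part of several windows and not a whole seed. For moR-21 too the study proposes bases 2 to 8 as the most relevant seed. The mature miRNA starts at base 18 of the hairpin, downstream of GUACC, so this stretch of moR-21 lies outside miR-21a-5p. As GUACC is what the first of those windows share, the mimetic begins just upstream of the hairpin start, and the line shows the hairpin and not the mimetic itself.
Mir21a hairpin, first 30 bases: uGUACCaccuugucggauagcuuaucagac
mmu-miR-21a-5p: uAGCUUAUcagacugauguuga

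In the proteasome, a barrel-shaped core particle holds the proteolytic sites inside stacked rings of alpha and beta subunits, and a regulatory particle with an ATPase ring recognises, unfolds and threads in the substrate. Interferons replace the catalytic beta subunits with the immunoproteasome set, which is known for trimming peptides for class I antigen presentation. The subunit genes are often regulated together, and the transcription factor Nrf1, encoded by Nfe2l1, is known to raise many of them when proteasome activity is low.

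Most proteasome transcripts moved little under the moR-21 mimetic. On the log2 scale of the quantile normalized signal, the 40 tested genes lay between -0.19 and 0.53 relative to the control, with a median of 0.07, against a median of 0.01 over all 8727 genes tested. At the study's cutoffs, which ask for an adjusted p under 0.002 by limma as well as a fold change above 1.3, 3 proteasome genes were called higher and 0 lower. Those called were the alpha-ring gene Psma7, the assembly chaperone gene Psmg3 and Psmc3ip, whose product is not a proteasome subunit. The 3 called genes were 7.5% of the 40, and 7.79% of all genes were called in either direction, 3.41% higher and 4.38% lower, so the share called was near the background.

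With the adjusted p under 0.05 and no fold cutoff, the rule by which a gene is said below to have risen or fallen, 7 proteasome genes rose and 1 fell. The risen genes were Psma4, Psma7, Psmb1, Psmb7, Psmg3, Psmd10 and Psmc3ip, and the fallen gene was Psme3. Together they made up 20.0% of the tested proteasome genes, against 36.1% of all genes that passed this rule, 18.8% higher and 17.3% lower. An unadjusted p under 0.05 was reached by 14 of the 40, or 35.0%, against 44.6% of all genes. The moR-21 samples lay wholly above the control samples for 11 of the genes and wholly below them for 4, while over all genes the treatments were separate in this way for 46.3%, 24.4% higher and 21.9% lower. Most of the genes were also bounded from above: for 36 of 40, or 90.0%, the 95% confidence interval lay within a fold change of 1.3 either way, as it did for 83.4% of all genes. Of the 40 genes 26 had a log2 fold change above 0, or 65.0% against 51.8% of all genes.

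**Figure D1:**
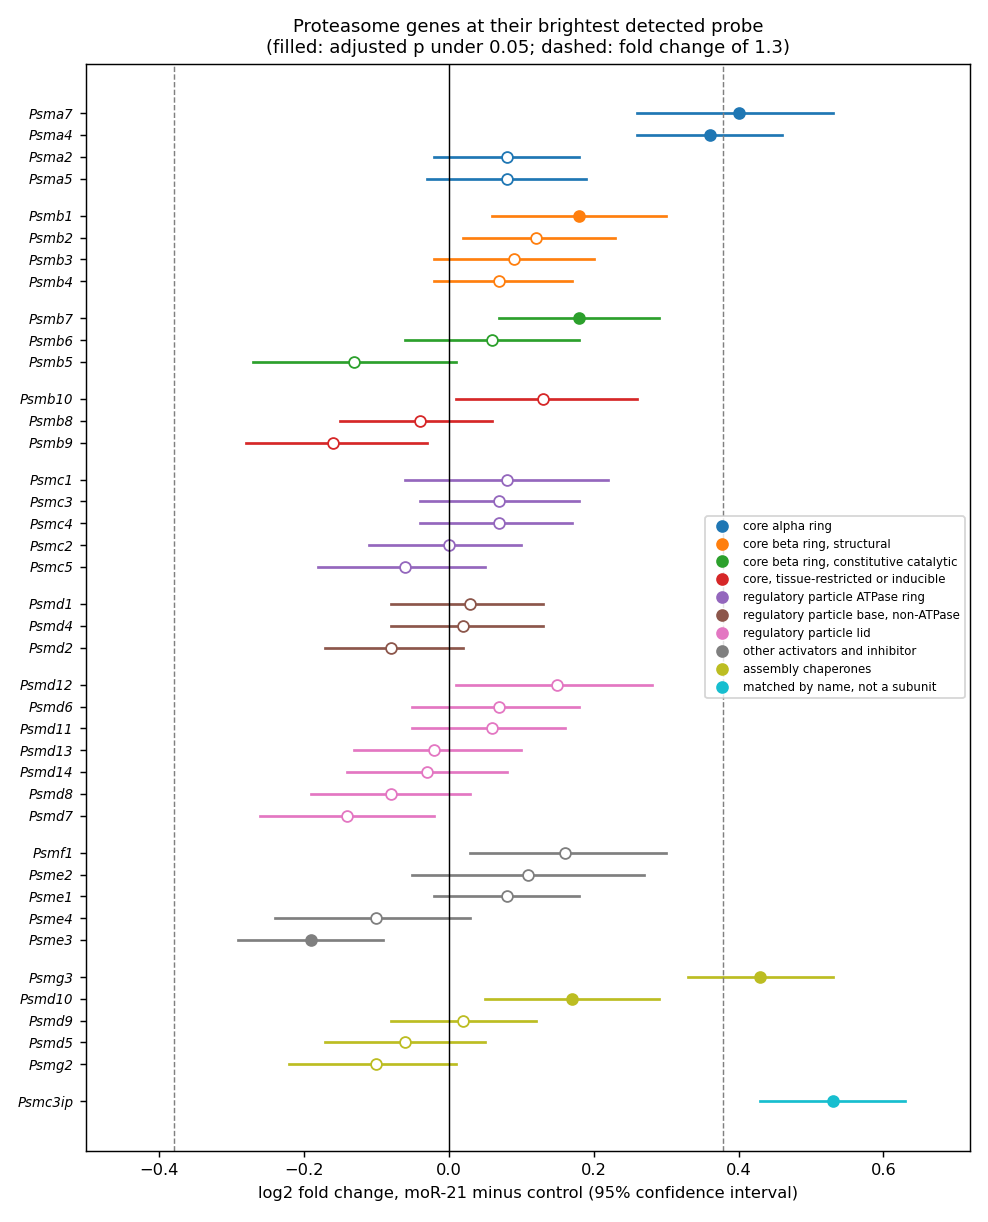
Log2 fold change of each of the 40 tested proteasome genes, moR-21 minus control, at the gene's brightest detected probe. Points are limma estimates from 3 samples per treatment, bars are 95% confidence intervals, colours are groups by role, filled points passed an adjusted p of 0.05, and dashed lines stand at a fold change of 1.3. The 15 regulatory particle genes all have open points between -0.14 and 0.15, and Psma7, Psmg3 and Psmc3ip lie beyond the right dashed line.

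Of the 11 tested genes of the constitutive core particle 10 had a log2 fold change above 0, with a median of 0.09 and a range of -0.13 to 0.40, and 4 rose and 0 fell. Those 4 were 36.4% of the core genes, against 36.1% of all genes that passed in either direction and 18.8% that rose. Of the 15 tested genes of the regulatory particle 8 lay above 0 and 7 below, with a median of 0.02 and a range of -0.14 to 0.15, and 0 passed the adjusted p in the limma fit, while Psmd7 and Psmd12 reached an unadjusted p under 0.05. All 15 regulatory particle intervals lay within a fold change of 1.3. The main fit subtracted no background, and some of these genes were dim. Control means were 6.65 for Psmd6, 7.02 for Psmd2 and 7.29 for Psmd1, so such intervals bound the uncorrected signal only. Under normexp background correction the median of the regulatory particle was again 0.02, and 1 of its genes, Psmd2, passed as lower. No test of the difference between the particles was run.

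Averaged over the 11 core genes, the log2 signal lay 0.10, 0.18 and 0.13 above the control mean in moR-21 samples 1, 2 and 3, while the control samples deviated from their own mean by at most 0.01. In this average the 3 moR-21 samples were all above the control samples. Gene by gene they were so for 7 of the 11, against 24.4% of all genes. These counts use samples with repeat arrays averaged, and on single arrays Psma2, Psmb4, Psmb1 and Psmb2 did not stay clear. Array A of moR-21 sample 3 read 12.39 for Psma2, against 12.43 in control 3. Array B read 12.08 for Psmb4, against 12.10 on array A of control 1. For Psmb1 and Psmb2 array A equalled a control to 2 decimals, at 11.61 and 11.13. The largest differences within the average were 0.40 for Psma7 and 0.36 for Psma4. Averaged over the 15 regulatory particle genes, the difference was 0.01, -0.01 and 0.02 in the moR-21 samples, which overlapped the control values of -0.01, 0.01 and 0.00. Over the 17 alternative settings 10 of the 11 core genes lay above 0 in each, between 2 and 6 of them passed the adjusted p, and the regulatory particle had 0 to 2 genes that passed. Without control sample 3 both Psmd7 and Psmd12 passed, the first lower and the second higher.

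**Figure D2:**
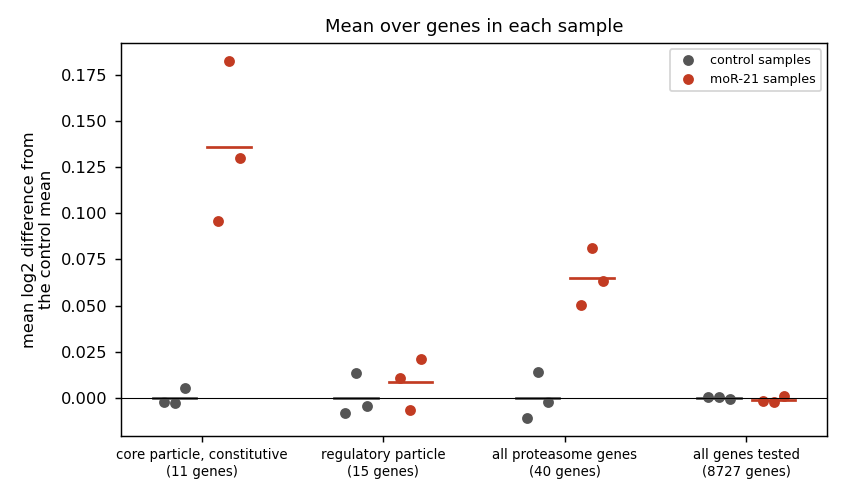
Mean log2 difference from the control mean in each sample, over the genes named on the horizontal axis; points are samples and short lines are means over 3 samples. The moR-21 samples sit at 0.10 to 0.18 for the core particle, against -0.01 to 0.02 for the regulatory particle, and near 0 for all genes.

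Of the 7 alpha-ring genes, whose products form the outer rings of the core and gate its entry, 4 were measured, all above 0. Psma7, which encodes the alpha 4 subunit and lies at chr2:180036367-180042464 (GRCm38.p6, as are all gene positions here), had log2 signals of 10.52, 10.50 and 10.67 in control samples 1 to 3 and of 10.82, 11.04 and 11.02 in moR-21 samples 1 to 3. All moR-21 samples lay above all control samples, as they did for 24.4% of all genes tested. The mean was 10.56 ± 0.089 in the control and 10.96 ± 0.12 in moR-21 samples (SD, n = 3 each), a log2 fold change of 0.40 (SE 0.064, 95% interval 0.26 to 0.53) or 1.32-fold, with an adjusted p of 0.000263 by limma. A dimmer Psma7 probe gave 0.44 with an adjusted p of 7.65e-06 and was also called. The rise kept its sign and an adjusted p under 0.05 in all 17 alternatives, but the gene was called in 12 of them. It was not called without control 1 (0.38, adjusted p 0.00216), control 2 (0.37, 0.00242), moR-21 sample 2 (0.36, 0.00164) or moR-21 sample 3 (0.37, 0.00216).

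Psma4, which encodes alpha 3, the subunit whose tail takes part in closing the gate, lies at chr9:54950781-54958034. Its log2 signals were 10.59, 10.51 and 10.62 in the control and 10.95, 10.93 and 10.94 in the moR-21 samples. The moR-21 samples stood together and above all controls. The value of moR-21 sample 3 is an average of 11.02 on array A and 10.85 on array B. The log2 fold change was 0.36 (SE 0.047, 95% interval 0.26 to 0.46), and the adjusted p by limma was 4.04e-05. At 1.29-fold it fell just short of the fold cutoff, and it was called in 2 of 17 alternatives, array A alone and without control 3 (0.38, adjusted p 8.11e-05). The other measured alpha genes were smaller in difference, 0.08 for Psma2 (adjusted p 0.197 by limma) and 0.08 for Psma5 (0.252). With 3 alpha genes undetected, the alpha-ring median of 0.22 rests on 4 genes.

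The structural beta genes Psmb1 to Psmb4 encode the beta subunits without a proteolytic site, and all 4 were measured. They lay between 0.07 and 0.18 with a median of 0.11, and 1 of the 4 rose. Psmb1 at chr17:15475721-15498276 had log2 signals of 11.41, 11.61 and 11.43 in the control and 11.66, 11.70 and 11.65 in the moR-21 samples. The groups did not overlap, but control 2 came close to the moR-21 range. The log2 fold change was 0.18 (SE 0.056, 95% interval 0.06 to 0.30), with an adjusted p of 0.0213 by limma. The call at 0.05 was lost in 4 of 17 alternatives, among them those without control 1 (0.14, adjusted p 0.106), control 3 (0.16, 0.0754) and moR-21 sample 2 (0.17, 0.0637).

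Psmb2 was read differently by its probes. The brightest gave a log2 fold change of 0.12 (SE 0.049, adjusted p 0.0687 by limma) and a dimmer one gave 0.27 (SE 0.053, adjusted p 0.0011). On the dimmer probe the log2 signals were 10.26, 10.29 and 10.42 in the control and 10.55, 10.61 and 10.63 in the moR-21 samples. On both probes the moR-21 samples lay above all controls. Psmb3 and Psmb4 differed by 0.09 and 0.07, with adjusted p of 0.204 and 0.243.

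The constitutive catalytic genes did not move as a set. Psmb5, Psmb6 and Psmb7 encode the subunits with chymotrypsin-like, caspase-like and trypsin-like activity. Psmb7 at chr2:38588046-38643952 had log2 signals of 10.42, 10.44 and 10.40 in the control and 10.51, 10.68 and 10.62 in the moR-21 samples. All moR-21 samples were higher, and the gene rose by a log2 fold change of 0.18 (SE 0.051, 95% interval 0.07 to 0.29, adjusted p 0.014 by limma). Its dimmer probes gave 0.17 (adjusted p 0.166) and 0.05 (0.496). The call at 0.05 was lost in 4 of 17 alternatives: without moR-21 sample 2 (0.14, adjusted p 0.0607), under median scaling (0.16, 0.0699), under normexp (0.19, 0.0873) and at the dimmest probe.

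Psmb5 at chr14:54614120-54617995 had log2 signals of 9.02, 8.84 and 8.76 in the control and 8.70, 8.83 and 8.70 in the moR-21 samples. It was the only constitutive core gene below 0, and its groups overlapped. The log2 difference was -0.13 (SE 0.064, 95% interval -0.27 to 0.01, adjusted p 0.137 by limma), and it ranged from -0.06 without control 1 (adjusted p 0.536) to -0.19 without control 3 (0.0404). Psmb6 at chr11:70525324-70527858 had 10.36, 10.32 and 10.36 in the control and 10.28, 10.48 and 10.46 in the moR-21 samples. Here moR-21 sample 1 lay under every control and the other 2 above, for a difference of 0.06 (SE 0.055, 95% interval -0.06 to 0.18, adjusted p 0.481). Without moR-21 sample 1 it was 0.12 and without moR-21 sample 2 it was 0.02, and neither passed.

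The immunoproteasome genes Psmb8, Psmb9 and Psmb10, which interferons induce, encode the subunits that stand in for the catalytic ones. None of the 3 passed the adjusted p at its brightest probe, and their median log2 fold change was -0.04. Psmb8 at chr17:34198195-34201454 had log2 signals of 6.88, 6.99 and 6.91 in the control and 6.93, 6.85 and 6.88 in the moR-21 samples, and was detected on 7 of 8 arrays. The groups overlapped, with a difference of -0.04 (SE 0.048, 95% interval -0.15 to 0.06, adjusted p 0.555 by limma). The gene was dim, so this interval bounds the uncorrected signal only. Under normexp background correction the difference was -0.13 (adjusted p 0.388).

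Psmb9, beside it at chr17:34182030-34187330, had 8.05, 8.23 and 8.01 in the control and 7.92, 8.0 and 7.89 in the moR-21 samples. The moR-21 samples lay below all controls, as they did for 21.9% of all genes, though moR-21 sample 2 and control 3 lay within 0.01 of each other. The difference of -0.16 (SE 0.060, 95% interval -0.28 to -0.03) had an adjusted p of 0.0567 by limma. It passed in 5 of 17 alternatives, among them those without control 3 (-0.20, adjusted p 0.0246) and without moR-21 sample 2 (-0.19, 0.0427), while without control 2 it was -0.09 (0.255).

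Psmb10 at chr8:105935728-105938392 went the other way. Its brightest probe read 10.89, 11.07 and 10.85 in the control and 11.04, 11.06 and 11.11 in the moR-21 samples, and control 2 fell among the moR-21 samples. The difference was 0.13 (SE 0.057, adjusted p 0.0934 by limma), and it ranged from 0.09 without control 3 (adjusted p 0.309) to 0.20 without control 2 (0.0133). The dimmer probe read 10.02, 10.22 and 10.04 in the control and 10.51, 10.44 and 10.37 in the moR-21 samples. On that probe the groups separated, with a difference of 0.35 (SE 0.060, adjusted p 0.00048).

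**Figure D3:**
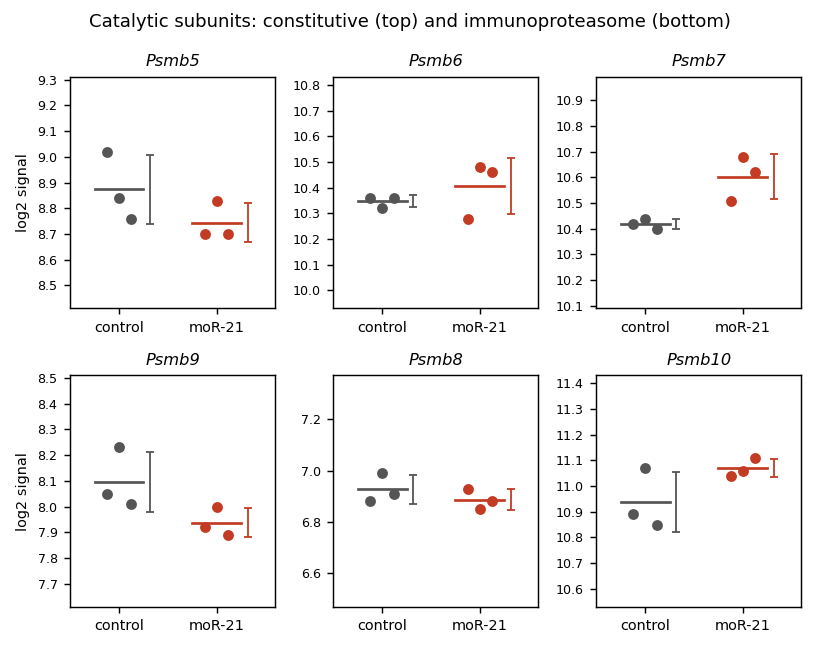
Log2 signal of the constitutive catalytic genes (top row) and the immunoproteasome genes (bottom row) at the brightest probe in each sample. Points are the 3 samples per treatment, lines are means, bars are 1 SD, and each panel spans the same height in log2 units. Only for Psmb7 (moR-21 higher) and Psmb9 (moR-21 lower) do the treatments separate.

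The regulatory particle was nearly level in each of its layers. The 5 measured genes of the ATPase ring, the motor that unfolds the substrate, lay between -0.06 for Psmc5 and 0.08 for Psmc1. The 3 genes of the rest of the base, Psmd1, Psmd2 and Psmd4, lay between -0.08 and 0.03. Psmd2 had its moR-21 samples below all controls, 6.93, 6.95 and 6.96 against 7.02, 7.03 and 7.02. The spread was small, and the difference of -0.08 had an adjusted p of 0.211 by limma.

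The 7 genes of the lid, which removes the ubiquitin chain, spanned the widest range, from -0.14 for Psmd7 to 0.15 for Psmd12. Psmd12, a scaffold subunit, had log2 signals of 9.33, 9.45 and 9.59 in the control and 9.68, 9.59 and 9.55 in the moR-21 samples, which overlapped (adjusted p 0.0855 by limma). Psmd7, the partner of the deubiquitinase, had 10.28, 10.34 and 10.14 in the control and 10.10, 10.07 and 10.18 in the moR-21 samples, which also overlapped (adjusted p 0.0745), and its dimmer probe had the opposite sign (0.08, adjusted p 0.231). Psmd14, which encodes the deubiquitinase itself, differed by -0.03 (adjusted p 0.725). Psmd6 was detected on 1 of 8 arrays, so that its difference of 0.07 was measured near background.

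The alternative caps of the core, which open it without the regulatory particle, and the inhibitor gene Psmf1 gave 1 change in 5 genes. Psme3, which encodes PA28 gamma of the nucleus, lies at chr11:101316213-101323537. It had log2 signals of 8.25, 8.20 and 8.16 in the control and 8.0, 8.01 and 8.02 in the moR-21 samples. The moR-21 samples stood together below every control. The means were 8.20 ± 0.047 and 8.01 ± 0.011 (SD, n = 3 each), and the gene fell by 0.19 on the log2 scale (SE 0.046, 95% interval -0.29 to -0.09, adjusted p 0.00555 by limma). It was the only proteasome gene that fell, and it did so in all 17 alternatives, between -0.27 and -0.16.

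Psme1 and Psme2 encode the interferon-inducible PA28 cap. Psme1 had log2 signals of 11.24, 11.25 and 11.20 in the control and 11.36, 11.30 and 11.27 in the moR-21 samples, and Psme2 had 8.67, 8.85 and 8.98 in the control and 8.91, 9.06 and 8.85 in the moR-21 samples. Psme1 separated and Psme2 overlapped, and neither passed, at 0.08 (adjusted p 0.213 by limma) and 0.11 (adjusted p 0.293). Single samples weighed on Psme2, at 0.03 without control 1 and 0.18 without control 3 (adjusted p 0.835 and 0.0614). Psme4, which encodes PA200, had 10.53, 10.40 and 10.48 in the control and 10.49, 10.24 and 10.36 in the moR-21 samples. These overlapped, with an adjusted p of 0.226 and a difference of -0.10 that ranged from -0.04 without moR-21 sample 2 (adjusted p 0.652) to -0.17 without moR-21 sample 1 (0.0465).

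Psmf1, which encodes the inhibitor PI31, had log2 signals of 10.14, 10.35 and 10.14 in the control and 10.29, 10.45 and 10.40 in the moR-21 samples. Control 2 lay inside the moR-21 range. The difference was 0.16 (SE 0.063, 95% interval 0.03 to 0.30, adjusted p 0.0595 by limma), and it passed in 5 of 17 alternatives, among them those without control 2 (0.24, adjusted p 0.00961) and without moR-21 sample 1 (0.21, 0.0305). Its lowest value with 1 sample left out was 0.13.

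Assembly chaperones are not part of the finished proteasome. Psmg3 and Psmg2 help to build the alpha ring, and Psmd5, Psmd9 and Psmd10 the base of the regulatory particle. Psmg3 at chr5:139823613-139826894 had log2 signals of 7.65, 7.61 and 7.67 in the control and 8.05, 8.11 and 8.05 in the moR-21 samples. The groups were far apart relative to their spread, 7.64 ± 0.029 against 8.07 ± 0.037 (SD, n = 3 each). The log2 fold change was 0.43 (SE 0.046, 95% interval 0.33 to 0.53) or 1.35-fold, with an adjusted p of 7.11e-06 by limma, and the gene was called in all 17 alternatives, between 0.41 and 0.67. Psmg2, which acts with a further chaperone on the same ring, had 9.59, 9.60 and 9.57 in the control and 9.38, 9.56 and 9.50 in the moR-21 samples. Its moR-21 samples were all lower, by 0.10 in the mean, and it did not pass (adjusted p 0.142).

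Psmd10, the gene of gankyrin, lies at chrX:140948425-140956711. It had log2 signals of 10.07, 9.88 and 9.90 in the control and 10.16, 10.12 and 10.07 in the moR-21 samples. The lowest moR-21 sample and control 1 had the same value to 2 decimals. The difference of 0.17 (SE 0.056, 95% interval 0.05 to 0.29, adjusted p 0.0313 by limma) passed in only 6 of 17 alternatives. It was lost without control 2 (0.13, adjusted p 0.128), control 3 (0.14, 0.105), moR-21 sample 1 (0.15, 0.0951) and moR-21 sample 2 (0.16, 0.0702). Both dimmer probes had the same sign, 0.14 (adjusted p 0.197) and 0.13 (adjusted p 0.0725). Psmd5 and Psmd9 lay at -0.06 and 0.02.

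The largest difference under the symbol rule belonged to a gene that is no subunit. Psmc3ip, named for binding the ATPase Psmc3, encodes a partner of the recombinases of meiosis, and lies at chr11:101092141-101095435. Its log2 signals were 7.50, 7.51 and 7.54 in the control and 7.98, 8.11 and 8.04 in the moR-21 samples. The groups were widely apart, and the log2 fold change was 0.53 (SE 0.048, 95% interval 0.43 to 0.63) or 1.44-fold, with an adjusted p of 1.61e-06 by limma. It was called in all 17 alternatives, between 0.50 and 0.86, the highest under normexp background correction. Without it the remaining 39 genes held 2 called genes, or 5.13%, and 17.9% that passed at 0.05, with the same median of 0.07.

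**Figure D4:**
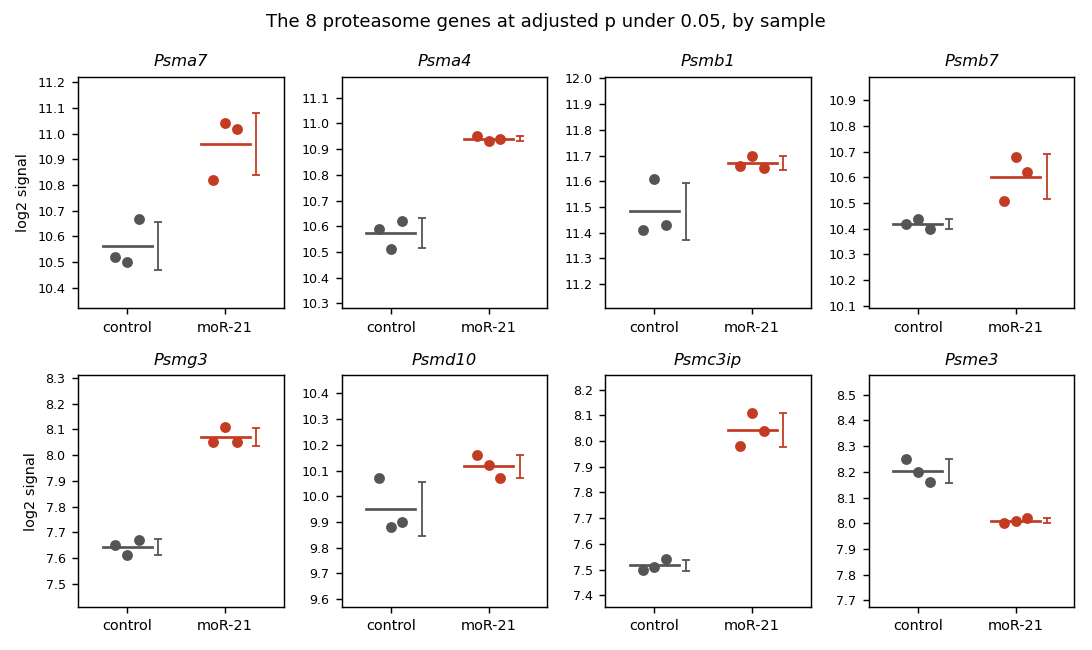
Log2 signal in each sample of the 8 proteasome genes that passed an adjusted p of 0.05, at the brightest probe. Points are the 3 samples per treatment, lines are means, bars are 1 SD, and each panel spans the same height in log2 units. Psmg3 and Psmc3ip show the widest gap, Psmd10 nearly touches, and Psme3 is the gene with lower moR-21 samples.

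The spread between samples was about that of other genes. The median SD over the control samples was 0.062 for the proteasome genes against 0.052 for all genes, and over the moR-21 samples it was 0.057 against 0.056. Psme2 had the highest control SD, at 0.16. Between arrays A and B of control 1 the median gap was 0.034, and between those of moR-21 sample 3 it was 0.060. The largest of these gaps, 0.30 on the log2 scale, belonged to Psmd11, a lid gene, and was wider than any regulatory particle difference.

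Probes of the same gene were also compared, since 12 genes had more than 1 detected probe. They differed in sign for Psmc5 (-0.06 and 0.07), Psmd7 (-0.14 and 0.08) and Psmd11 (0.06 and -0.03). They differed in passing at 0.05 for Psmb10, Psmb2, Psmb7 and Psmd10. Psma7 was the only gene called on more than 1 probe.

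**Figure D5:**
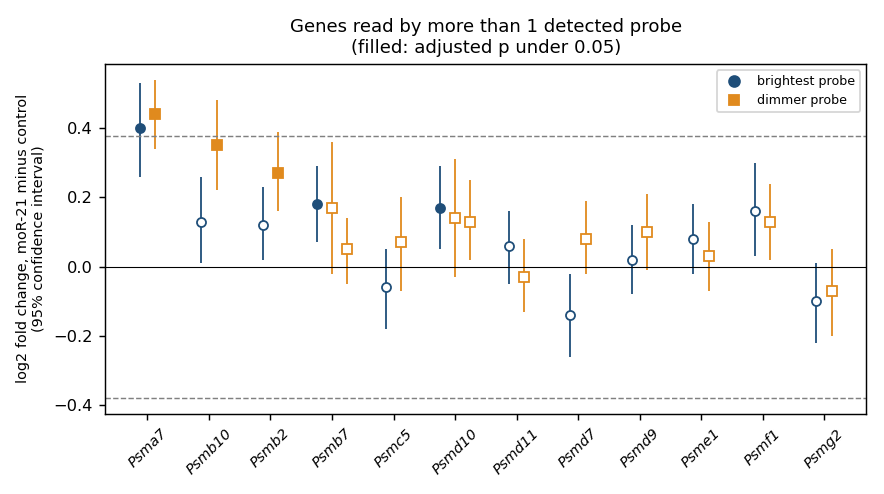
Log2 fold change, moR-21 minus control, at the brightest probe (circles) and the dimmer detected probes (squares) of the 12 proteasome genes with more than 1 detected probe. Bars are 95% confidence intervals, filled symbols passed an adjusted p of 0.05 by limma, and dashed lines stand at a fold change of 1.3. Both Psma7 probes are filled, while for Psmb10 and Psmb2 only the dimmer probe is.

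Genes that work with the proteasome were set against the same background of 36.1% at an adjusted p under 0.05. Of 8 tested genes for proteasome-bound and assembly proteins, 2 rose and 2 fell, or 50.0%. Adrm1, a ubiquitin receptor of the regulatory particle, had log2 signals of 8.63, 8.68 and 8.80 in the control and 8.93, 8.91 and 8.83 in the moR-21 samples, a separation of 0.19 (adjusted p 0.0139 by limma). Pomp, the maturation factor of the core, had 11.22, 11.22 and 11.35 in the control and 11.34, 11.62 and 11.42 in the moR-21 samples, a rise of 0.20 (adjusted p 0.033) with overlap. Zfand2a, an arsenite-inducible proteasome-binding protein, was called lower, with 8.49, 8.57 and 8.56 in the control and 8.08, 8.0 and 8.14 in the moR-21 samples. It fell by 0.47 on the log2 scale (adjusted p 7.43e-06), further than any proteasome gene. AI314180, the symbol used for the scaffold protein Ecm29, fell by 0.20 (adjusted p 0.0445) with overlapping samples.

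Nfe2l1, the gene of Nrf1, fell. Its log2 signals were 10.47, 10.50 and 10.50 in the control and 10.27, 10.35 and 10.26 in the moR-21 samples. All moR-21 samples were lower, and the difference was -0.20 (SE 0.046, adjusted p 0.00377 by limma). The related factor gene Nfe2l2 differed by 0.05 (adjusted p 0.615) and the partner gene Mafg had an adjusted p of 0.958, and the other 4 genes of this list, among them the Nrf1-processing genes Ddi2 and Ngly1, were not detected.

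Of 11 tested genes for ubiquitin supply and delivery, 1 rose and 2 fell, or 27.3%, below the 36.1% of all genes. Ubqln1, a shuttle that carries ubiquitinated proteins to the proteasome, had log2 signals of 10.13, 10.19 and 10.25 in the control and 9.47, 9.46 and 9.67 in the moR-21 samples. It was called lower at -0.65 (adjusted p 1.65e-06 by limma), but its dimmer probes gave -0.13 (adjusted p 0.0442) and -0.12 (0.126). Uba1, the main ubiquitin-activating enzyme, fell by 0.25 (adjusted p 0.00197) on its brightest probe, while a dimmer one gave 0.04 (0.586). A probe set under its older symbol Ube1x gave -0.07 (0.318). Rps27a, which encodes ubiquitin fused to a ribosomal protein, rose by 0.24 (adjusted p 0.00791).

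In class I antigen presentation, where immunoproteasome products are used, 0 of 5 tested genes rose and 2 fell, or 40.0%, near the 36.1% of all genes. The peptide transporter gene Tap2 had log2 signals of 8.95, 9.04 and 8.83 in the control and 8.59, 8.62 and 8.63 in the moR-21 samples, and fell by 0.33 (adjusted p 0.000321 by limma). The interferon-response factor gene Irf1 fell by 0.17 (adjusted p 0.0275), and its other probes lay between -0.16 and 0.02. B2m, the light chain of class I molecules, differed by 0.09 (adjusted p 0.231).

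Nrf1 binds antioxidant response elements, so the promoter windows were searched for TGACNNNGC on both strands. RefSeq windows of GRCm38.p6, 250 bases before to 50 after each start, matched 38 of the 44 genes. The motif was in 6 of them, or 15.8%, against 14.0% of 27025 genes and 17.1% of the 5611 tested genes with a window. The matches are printed below on the strand of the motif, with the motif in capitals, because they show which proteasome genes carry these letters next to their start and how those genes moved. They lie at chr14:54618034-54618042 for Psmb5, chr11:70525348-70525356 for Psmb6, chr14:45329597-45329605 for Psmc6, chr11:107479281-107479289 for Psmd12, chr5:123228159-123228167 for Psmd9 and chr11:30771768-30771776 for Psme4.
Psmb5: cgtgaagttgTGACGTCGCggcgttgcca
Psmb6: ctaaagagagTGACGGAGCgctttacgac
Psmc6: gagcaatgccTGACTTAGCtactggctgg
Psmd12: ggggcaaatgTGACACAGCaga
Psmd9: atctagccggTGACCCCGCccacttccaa
Psme4: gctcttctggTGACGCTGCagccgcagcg

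Of these 6 genes, Psmc6 was not detected and the others did not pass the adjusted p, with log2 fold changes of -0.13 for Psmb5, 0.06 for Psmb6, 0.15 for Psmd12, 0.02 for Psmd9 and -0.10 for Psme4. None of the 3 called genes held the motif in its window. The risen genes Psmb1 and Psmb7 were among those without a window and were not searched. The CCAAT box, searched the same way, was in 14 of 38 genes, or 36.8%, against 41.1% of all genes. A match of letters is a description and not a binding site.

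Across the series, the arrays had median intensities of 102 to 109 with 10285 to 10512 probes detected, so that signal over background was alike between them. The labels name aortic smooth muscle cells as the source, while their description field writes AoECs for the same samples. Of 7 smooth muscle markers on the array 5 were detected and Cnn1 and Myh11 were not, and the signal summed over detected probes was 13400 to 13550 in the control and 17750 to 18870 in the moR-21 samples. Within this list Acta2, the brightest, rose by 0.40 on the log2 scale (adjusted p 2.14e-05 by limma) and Tagln by 0.20 (0.00367), Des fell by 0.38 (8.6e-05), and Smtn (-0.05) and Lmod1 (0.05) did not pass. Of 6 endothelial markers Vwf alone was detected (signal 117.1 to 120.2 in the control and 118.5 to 126.5 in the moR-21 samples, not far above the array medians), with Pecam1, Cdh5, Kdr, Tek and Tie1 undetected, and of 7 leukocyte markers Csf1r alone (115.0 to 118.4 and 113.9 to 116.7). Of 5 mesothelial markers Upk3b and Krt19 were detected and Msln, Krt8 and Lrrn4 were not, and the sum over detected probes was 1453 to 1549 in the control and 745.5 to 779.9 in the moR-21 samples. Upk3b fell by 1.24 (adjusted p 2.51e-10), and Krt19 differed by -0.13 (0.115). The smooth muscle sum was higher and the mesothelial sum lower in every moR-21 sample, and their part in the proteasome results was not tested.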

How the data were processed

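RNA of 6 samples, 3 per treatment, was measured on 8 Illumina mouse BeadChip arrays, and groups were taken from the sample labels. The authors deposited a non-normalized intensity for each probe and array, and a detection p-value beside each deposited intensity. Neither a filter nor a background correction is stated. Per the labels, lumi was used by the authors, and the methods name BeadStudio, quantile normalization and limma. The sources name both a MouseRef-8 and a MouseWG-6 design.

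Quantile normalization was run over all 8 arrays, values were taken to log2, and repeat arrays were averaged within their sample. The treatments were compared with limma 3.58.1 in R 4.3.3 (lmFit and eBayes, no covariate) on the 11651 probes that 1 or more arrays detected (detection p-value under 0.01), with Benjamini-Hochberg adjustment across them. Genes were called at the study's cutoffs, an adjusted p under 0.002 with a fold change above 1.3, and were read at the brightest detected probe. Precision is limited by the number of samples. With 3 against 3 samples an exact two-sided permutation test cannot go below 0.1, so single genes were tested in the limma fit alone.

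Values in every sample are given for called genes, catalytic and immunoproteasome genes, the genes that passed an adjusted p of 0.05, and the activator and inhibitor genes. Others named with values were chosen after those were seen. The proteasome genes and the lists of related genes and markers were chosen with earlier results of these data known, and a gene of the related lists is not reported here. Gene symbols are those of the table, and all 44 matched RefSeq (GRCm38.p6). Probe sequences were not used here, so the signal of near-identical gene copies cannot be told apart. The fit was first tested on simulated data.

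The 17 alternatives per gene were normexp background correction (offset 16), median scaling, cyclic loess, no detection filter or detection on all 8 arrays, array A or B alone, all arrays with duplicateCorrelation, eBayes with trend and robust, a replicate block, each sample left out, and the dimmest probe. A fold change over 1.5 was tried for the calls. The medians of the core and of the regulatory particle were put through these settings after the data had been seen.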

Additional observations from a re-analysis of the deposited data

How the results depend on the processing

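The median log2 fold change of the proteasome genes, 0.07, was 0.05 under cyclic loess and 0.04 to 0.07 with 1 sample left out, lowest without moR-21 sample 2 or 3. The 3 called genes became 0 at a fold change over 1.5 in the main fit, and 2 to 4 with 1 sample left out. The main fit subtracted no background, and under normexp the log2 fold changes of Psmc3ip and Psmg3 were larger, at 0.86 and 0.67. The 7 risen genes became 4 under normexp background correction and 4 to 8 with 1 sample left out, lowest without moR-21 sample 2. The 1 fallen gene became 3 with all 8 arrays and duplicateCorrelation, 2 with array B alone, 2 under cyclic loess, 2 under normexp, and 1 to 4 with 1 sample left out (4 without control 3, 2 without moR-21 sample 1 or 2). The cause of these changes was not tested. No sign reversed among the 17 genes whose values are given in every sample by rule, nor in the medians of all proteasome genes, the core or the regulatory particle. Read at the dimmest detected probe, Psmc5, Psmd7 and Psmd11 did change sign (0.07, 0.08 and -0.03).

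Whether the replicate numbers shared by the treatments pair the samples is not stated in the labels. Deviations of same-numbered samples correlated at 0.187, 0.0441 and 0.0597, and those of differently numbered samples at -0.129 to 0.0693. Control 3 correlated best with moR-21 sample 2 (0.0693). Correlations this weak, from so few samples, cannot decide whether the samples were paired. With the number as a replicate block, 3 genes were called, 8 rose and 2 fell.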
